A study of Mus musculus with 7 samples.

Results

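Of the 17732 genes in the authors' deposited table, 10 are described here: Arc, Homer1, Plk2, Nptx2, Inhba, Sik1, Npas4, Ier2, Ier5 and Btg2. They were chosen by symbol as genes that neuronal activity induces and that belong to neither the AP-1, the Egr nor the Nr4a transcription factors, and each symbol matched 1 line of the table. RNA was measured by sequencing of polyadenylated transcripts from medial prefrontal cortex in wild-type males of the inbred mouse strain 129SvEv, taken after retrieval of a remote memory. The labels divide the libraries into CFC (3 libraries) and SC (4 libraries), and they do not spell out either name, the age of the animals or the time between retrieval and sampling. All 7 libraries share strain, sex, genotype and tissue, so the named treatment is the only labelled difference. The labels do not say whether each library came from a separate animal. The p-values thus set each difference against an error estimated from these libraries, not necessarily from separate animals.

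Firing neurons let calcium into the cell, and calcium-activated kinases then switch on a set of genes within minutes to hours. Some of the products act at the synapse itself: Arc drives the removal of AMPA-type glutamate receptors, the short forms of Homer1 loosen the scaffold that joins glutamate receptors to calcium stores, Plk2 weakens overactive spines, Nptx2 gathers AMPA receptors at excitatory synapses on interneurons, and Inhba encodes a subunit of the secreted factor activin A. Others act back on transcription or on RNA: Npas4 is a neuron-restricted transcription factor, Sik1 is a kinase that restrains CREB-dependent transcription, Btg2 recruits the CCR4-NOT complex that shortens poly(A) tails, and Ier2 and Ier5 are small nuclear regulators of the immediate-early class. In cortex these genes serve as markers of recently active neurons.

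All values come from 1 comparison that the authors made, which lists for every gene the normalized count averaged over the libraries, a log2 fold change between the groups, the standard error of that log2 value and a p-value. No value of a single library was used here, and neither the labels nor the headers say which group is the numerator, so each difference is called positive or negative after its sign in the authors' deposited table. An adjusted p-value was given for 13060 genes, among them all 10 described here. Under an adjusted p-value of 0.05 there were 67 of the 13060 genes (0.513%), 0.368% positive and 0.145% negative.

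One of the 10 genes passed that threshold. Sik1 was positive, with a fold change of 1.51 and a 95% confidence interval from 1.22 to 1.87. Nptx2 was negative and passed only before adjustment, at an unadjusted p-value under 0.05, where 8.1% of all tested genes lay. The other 8 genes had intervals that included 0 on the log2 scale. These 8 differed by less than 1.1-fold between the groups, as did 76.3% of all tested genes. Of the 10 genes, 4 were positive and 6 negative, beside 49.4% positive among all tested genes. Their median log2 fold change was -0.06, and that of all tested genes was -0.0017. Whether Sik1 differed from the other genes of the set was not itself tested.

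**Figure D1:**
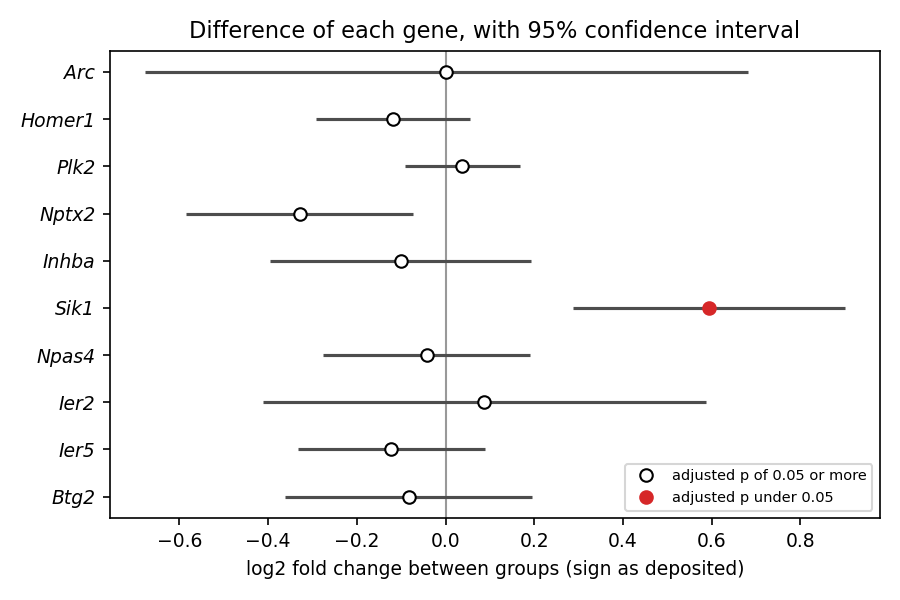
Log2 fold change between the CFC and SC groups for each gene in the authors' deposited table (points), with its 95% confidence interval computed from the deposited standard error (lines). Sik1, in red, is the gene under an adjusted p-value of 0.05, at 0.59. The interval of Arc, from -0.68 to 0.68, is the widest, and that of Plk2, from -0.09 to 0.17, the narrowest.

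The genes were present at very different levels. Because reads accumulate with transcript length, levels are compared as the mean normalized count per kilobase of annotated exons. On that scale Plk2 was highest, at 915 per kilobase, and lay above 94.7% of protein-coding genes with an adjusted p-value. Ier5, Homer1 and Nptx2 followed at 337, 281 and 236 per kilobase. Arc stood at 146 per kilobase, nearest of the 10 genes to the median of 117 of protein-coding genes. Npas4 and Btg2 were alike at 73.9 and 73.3 per kilobase, and Inhba, Sik1 and Ier2 were lowest, at 45.2, 40.4 and 35.01 per kilobase. The level of Plk2 was thus 26.1 times that of Ier2. The spread of these levels between libraries was not analysed here, so neighbours in this order cannot be separated. The length used moves these values, because the exons of all annotated transcripts add up to more than 1 transcript holds. Per kilobase of the longest coding transcript, a measure added after seeing the data, Plk2 stood at 1467 and Homer1 at 589, which places Homer1 above Ier5. The level of Plk2 was then 41.9 times that of Ier2, and Sik1, at 45.9, changed places with Inhba, at 45.2.

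**Figure D2:**
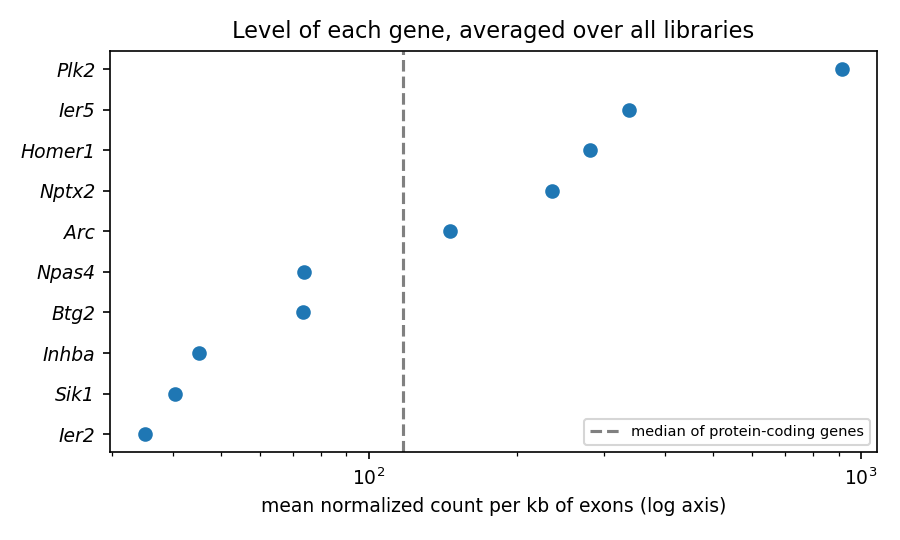
Mean normalized count over all 7 libraries in the authors' deposited table, divided by the kilobases of annotated exons (log axis), for each gene. Of the 10 genes, 5 lie above the median of protein-coding genes at 117 per kilobase (dashed line) and 5 below it.

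Sik1 (ENSMUSG00000024042) encodes salt-inducible kinase 1, which phosphorylates the CREB coactivators of the CRTC family and the class IIa histone deacetylases and so keeps both out of the nucleus. It lies on the minus strand at chr17:31844250-31855804 (GRCm38), with 14 exons in its longest coding transcript. Its mean normalized count in the authors' deposited table was 207. Its log2 fold change there was 0.59 ± 0.16 (SE), which gives a Wald statistic of 3.80, and its adjusted p-value was 0.0361. By the size of its Wald statistic, Sik1 ranked 57 among the 13060 tested genes. It passed narrowly, since at its standard error a log2 fold change of 0.58 was needed. When the test asked for more than a 1.2-fold difference, Sik1 did not pass (adjusted p-value 1).

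The other genes of the SIK pathway did not pass with it. Of 18 listed genes, which cover the SIK kinases and their activating complex (Stk11, Strada, Cab39), the CRTC coactivators with Creb1 and Crebbp, the class IIa histone deacetylases, the MEF2 factors and Srf, none was under an adjusted p-value of 0.05, and 2 positive and 1 negative gene had an unadjusted p-value under 0.05, beside 4.56% and 3.54% of all tested genes. Sik2, the nearest relative of Sik1 in the list, had a log2 fold change of 0.27 ± 0.09 (SE, adjusted p-value 0.223) in the authors' deposited table. Sik3, the third kinase of the family, was at 0.05 ± 0.06 (SE, adjusted p-value 0.991). Crtc1, the CRTC coactivator most studied in neurons, was negative at -0.19 ± 0.06 (SE, adjusted p-value 0.137). The list as a whole had a median log2 fold change of 0.02, with 10 genes positive and 8 negative. No gene of the list was thus called beside Sik1.

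Nptx2 (ENSMUSG00000059991, chr5:144545902-144557478, plus strand, GRCm38) encodes neuronal pentraxin 2, or Narp, which excitatory neurons release. Its mean normalized count was 598 and its log2 fold change -0.33 ± 0.13 (SE) in the authors' deposited table. Before adjustment the deposited p-value was 0.0116, and after it 0.387 in the authors' deposited table. From the standard error, the 95% confidence interval ran from -0.58 to -0.07, so the difference may have been as large as 1.499-fold or as small as 1.05-fold. Of all tested genes, 3.54% were negative at an unadjusted p-value under 0.05.

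The pentraxin receptor, with which Nptx2 assembles, did pass. Nptxr, a membrane-anchored pentraxin, had a mean normalized count of 22048 and a log2 fold change of -0.24 ± 0.06 (SE, adjusted p-value 0.00684) in the authors' deposited table. Nptx1, the third pentraxin of the complex, had the opposite sign, at 0.16 ± 0.07 (SE, adjusted p-value 0.515). Of the 6 listed partners, which also include the AMPA receptor subunits Gria3 and Gria4, the auxiliary subunit Cacng8 and the protease Adam17, 4 were negative and 2 positive, and their median log2 fold change was -0.05. The pentraxins thus held 1 called negative gene, Nptxr, where 0.145% of all tested genes were called negative, and did not share 1 sign.

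Arc (ENSMUSG00000022602, chr15:74669083-74672570, minus strand, GRCm38) had a mean normalized count of 446 and a log2 fold change of 0.0017 in the authors' deposited table, the value nearest to 0 among the 10 genes. Its standard error there was 0.35 and its adjusted p-value 0.9996. The estimate near 0 does not show that the groups were alike: the 95% confidence interval spans from a 1.60-fold negative to a 1.60-fold positive difference. At that standard error a difference of 2.42-fold would have been needed to pass the threshold. Among the 10 genes Arc was therefore the one that this comparison measured least precisely.

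Homer1 (ENSMUSG00000007617, chr13:93299635-93405129, plus strand, GRCm38) had a mean normalized count of 3367 and a log2 fold change of -0.12 ± 0.09 (SE, adjusted p-value 0.906) in the authors' deposited table. Its interval, from -0.29 to 0.06, leaves room for at most a 1.22-fold negative difference. The count is that of the whole gene. Neuronal activity induces the short forms, which end early and lack the coiled coil, whereas the long forms are made constitutively, and a gene count adds both together. A change confined to the short forms was not measured here.

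Among 20 listed partners of Arc and Homer1 at the postsynapse, 15 were negative and 5 positive, at a median log2 fold change of -0.06, and 6 negative genes and 1 positive gene had an unadjusted p-value under 0.05, beside 3.54% and 4.56% of all tested genes. Camk2a, the most abundant kinase of the postsynaptic density, was under the threshold, with a log2 fold change of -0.29 ± 0.06 (SE, adjusted p-value 0.00151) in the authors' deposited table. Shank3, a scaffold that binds Homer proteins, had a log2 fold change of -0.19 ± 0.06 (SE, adjusted p-value 0.157). Grm5, the metabotropic glutamate receptor that Homer1 tethers, had the opposite sign, at 0.11 ± 0.08 (SE, adjusted p-value 0.898). Camk2a was the only gene of this list that passed, beside 0.513% of all tested genes.

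Plk2 (ENSMUSG00000021701, chr13:110395046-110400844, plus strand, GRCm38) encodes polo-like kinase 2, which phosphorylates the spine protein SPAR, the product of Sipa1l1, and marks it for breakdown. Its mean normalized count of 4109 was the highest of the 10 genes, and its log2 fold change was 0.04 ± 0.07 (SE, adjusted p-value 0.999) in the authors' deposited table. The interval reached at most a 1.12-fold positive and a 1.07-fold negative difference, the tightest bound in the set. Sipa1l1 had a log2 fold change of -0.15 ± 0.06 (SE, adjusted p-value 0.348) in the authors' deposited table. Plk3, a second kinase of the family, was at 0.05 ± 0.14 (SE, adjusted p-value 0.999). Plk5 had the lowest log2 fold change of this list, -0.36 ± 0.15 (SE, adjusted p-value 0.473). None of the 11 listed genes passed, 2 negative ones had an unadjusted p-value under 0.05, where 3.54% of all tested genes lay, and the median log2 fold change was -0.02.

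Inhba (ENSMUSG00000041324, chr13:16011851-16031621, plus strand, GRCm38) had a mean normalized count of 289 and a log2 fold change of -0.10 ± 0.15 (SE, adjusted p-value 0.994) in the authors' deposited table. Its interval, from -0.40 to 0.19, includes differences of up to 1.32-fold on the negative side. Activin signals through a type II receptor, encoded by Acvr2a or Acvr2b, which recruits the type I receptor encoded by Acvr1b, and follistatin, encoded by Fst, binds and neutralises it. Acvr2a and Acvr2b had log2 fold changes of 0.17 ± 0.09 and 0.29 ± 0.13 (SE) in the authors' deposited table. Their adjusted p-values were 0.633 and 0.540. Acvr1b was at -0.0089 ± 0.06 (SE, adjusted p-value 0.999). Fst, at a low mean normalized count of 42.6, was at -0.19 ± 0.28 (SE, adjusted p-value 0.994). The smallest p-value of the listed genes was that of the follistatin-like gene Fstl4, at -0.28 ± 0.11 (SE, adjusted p-value 0.387) in the authors' deposited table. Of the 18 tested genes of this list none passed, with 2 positive and 3 negative ones at an unadjusted p-value under 0.05 (4.56% and 3.54% of all tested genes), and the median log2 fold change was 0.0056. Ligand, receptors and inhibitors of the activin pathway therefore showed no called difference.

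Npas4 (ENSMUSG00000045903, chr19:4984355-4990316, minus strand, GRCm38) had a mean normalized count of 306 and a log2 fold change of -0.04 ± 0.12 (SE, adjusted p-value 0.999) in the authors' deposited table. Its interval from -0.28 to 0.19 bounds a negative difference at 1.21-fold and a positive one at 1.14-fold. NPAS4 binds DNA together with ARNT2, whose gene had a log2 fold change of -0.14 ± 0.06 (SE, adjusted p-value 0.447) in the authors' deposited table. Npas2, a relative that works in the circadian clock, was at -0.14 ± 0.08 (SE, adjusted p-value 0.744). Of the 6 tested genes of this family 5 were negative, 1 negative gene had an unadjusted p-value under 0.05, beside 3.54% of all tested genes, and none passed.

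Ier2 and Ier5 are both single-exon genes. Ier2 (ENSMUSG00000053560, chr8:84661331-84662852, minus strand, GRCm38) was the scarcest of the 10, with a mean normalized count of 53.3, where an adjusted p-value was given from 34.9 upwards. Its log2 fold change was 0.09 ± 0.26 (SE, adjusted p-value 0.999) in the authors' deposited table, and a 1.92-fold difference would have been needed to pass. Ier5 (ENSMUSG00000056708, chr1:155096361-155099636, minus strand, GRCm38) had a mean normalized count of 1105 and a log2 fold change of -0.12 ± 0.11 (SE, adjusted p-value 0.956) in the authors' deposited table. Its interval reached from -0.33 to 0.09. The related gene Ier5l was at -0.12 ± 0.12 (SE, adjusted p-value 0.979). The phosphatase genes Cdc25b and Ppp2r2a were at -0.12 ± 0.10 and 0.07 ± 0.07 (SE), with adjusted p-values of 0.929 and 0.971. None of the 6 listed relatives and partners passed at an adjusted or an unadjusted p-value of 0.05, where 0.513% and 8.1% of all tested genes lay. Their median log2 fold change was -0.05. The difference of Ier2 was the less well resolved of the pair.

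Btg2 (ENSMUSG00000020423, chr1:134075170-134079120, minus strand, GRCm38) had a mean normalized count of 201 and a log2 fold change of -0.08 ± 0.14 (SE, adjusted p-value 0.998) in the authors' deposited table. Its interval from -0.36 to 0.20 includes differences of up to 1.28-fold on the negative side. Among its relatives, Btg1 and Tob1 had log2 fold changes of 0.10 ± 0.11 and 0.15 ± 0.09 (SE) in the authors' deposited table. Their adjusted p-values were 0.985 and 0.784. None of the 16 listed genes, which hold BTG and TOB relatives, CCR4-NOT subunits and the binding proteins Prmt1 and Pabpc1, passed at an adjusted or an unadjusted p-value of 0.05. Of all tested genes, 0.513% and 8.1% did. Cnot1, the scaffold of that complex, was at 0.09 ± 0.06 (SE, adjusted p-value 0.836). The log2 fold changes of the list ran from -0.09 to 0.15.

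Short stretches before the transcription start of Btg2, Plk2 and Homer1 are shown because these genes carry the cAMP response element, the CREB binding sequence of many activity-induced promoters, in full (TGACGTCA) or, in Homer1, as several copies of its core (TGACG or, on the other strand, CGTCA). The sequences are those of RefSeq on GRCm38.p6, 5′ to 3′ on the strand of the gene, with the element in capitals.
Btg2, chr1:134079278-134079357, minus strand: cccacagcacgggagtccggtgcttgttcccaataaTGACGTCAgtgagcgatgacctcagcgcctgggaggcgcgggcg
Plk2, chr13:110394946-110395025, plus strand: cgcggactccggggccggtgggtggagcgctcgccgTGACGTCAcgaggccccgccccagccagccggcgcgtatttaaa
Homer1, chr13:93303677-93303756, plus strand: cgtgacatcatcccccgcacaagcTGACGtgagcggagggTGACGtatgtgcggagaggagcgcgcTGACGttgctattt
The full element begins 166 bases before the start in Btg2 and 62 bases before it in Plk2. Homer1 holds 3 copies of the core, beginning 56, 40 and 14 bases before a RefSeq start at chr13:93303757. Only its most upstream GENCODE coding transcript begins there. The other coding transcripts of Homer1 begin further downstream, from chr13:93304102 to chr13:93308034. The printed stretch of Homer1 also lies inside its GENCODE span, which begins at chr13:93299635. The distances given for Homer1 thus hold for that RefSeq start only. Over the 250 bases before each start, the full element was found in 2 of the 6 genes with a promoter in the RefSeq table and in 1.77% of all 27025 genes, and the core in 4 of the 6 (Btg2, Plk2, Homer1 and Npas4) and in 19.8% of all genes. The bases searched for Npas4 lie inside its GENCODE span, because its coding transcript Npas4-201 begins further upstream, at chr19:4990316. The matches of Npas4 are thus upstream of its RefSeq start only. Every full element holds the core on both strands. A match describes the letters and is not a measured binding site. Promoters of Arc, Ier2, Nptx2 and Sik1 were not analysed here. No promoter of the 6 held the AP-1 sequence TGANTCA, which 7.82% of all genes held.

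Most of the 10 genes have a compact gene body, a feature that their choice did not use. Their median span was 5.88 kb, beside 27.4 kb for protein-coding genes with an adjusted p-value, and 9 of the 10 lay under that median. Homer1, at 105 kb, was the exception, and Ier2, at 1.52 kb, the shortest. The longest coding transcript had a median of 5 exons, beside 9 for protein-coding genes, although that of Sik1 and that of Plk2 had 14 each. None of the 10 had the AU-rich sequence ATTTATTTA, a mark of unstable messages, in the 3′ untranslated region of that transcript, where 6.71% of protein-coding genes with an adjusted p-value had it. Among genes whose region was of like length, the share ran from 1.66% for Plk2 to 17.9% for Homer1. At such shares its absence from 10 genes does not set them apart. The shorter AU-rich letters ATTTA occurred from 0 times in Arc and Ier2 to 21 times in Inhba. Exons of none of the 10 overlapped those of another gene in GENCODE M21 on either strand, which is not necessarily the annotation that the authors used.

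Activity-induced genes outside the 10 were described by 2 lists. Of 19 tested transcription factors of the AP-1, Egr, Nr4a and related families, 15 were positive and 4 negative, and their median log2 fold change was 0.23. Nr4a3, an orphan nuclear receptor, was under the threshold, at 0.42 ± 0.10 (SE, adjusted p-value 0.00643) in the authors' deposited table. A further gene, Egr3, was at -0.24 ± 0.08 (SE, adjusted p-value 0.158). In that list 7 positive and 2 negative genes had an unadjusted p-value under 0.05, beside 4.56% and 3.54% of all tested genes. The second list held 28 signalling and effector genes, such as secreted peptides, phosphatases and regulators of G proteins, and none of them passed. Its genes split into 13 positive and 15 negative ones around a median log2 fold change of -0.02, with 1 gene at an unadjusted p-value under 0.05, Sorcs3, at -0.25 ± 0.10 (SE, adjusted p-value 0.389) in the authors' deposited table. Nedd9, an adhesion scaffold, had the next smallest p-value, at 0.24 ± 0.14 (SE, adjusted p-value 0.779). The median of the 10 genes, -0.06, lay nearer to that of the effector list than to that of the transcription factors, and no test was made between the lists.

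**Figure D3:**
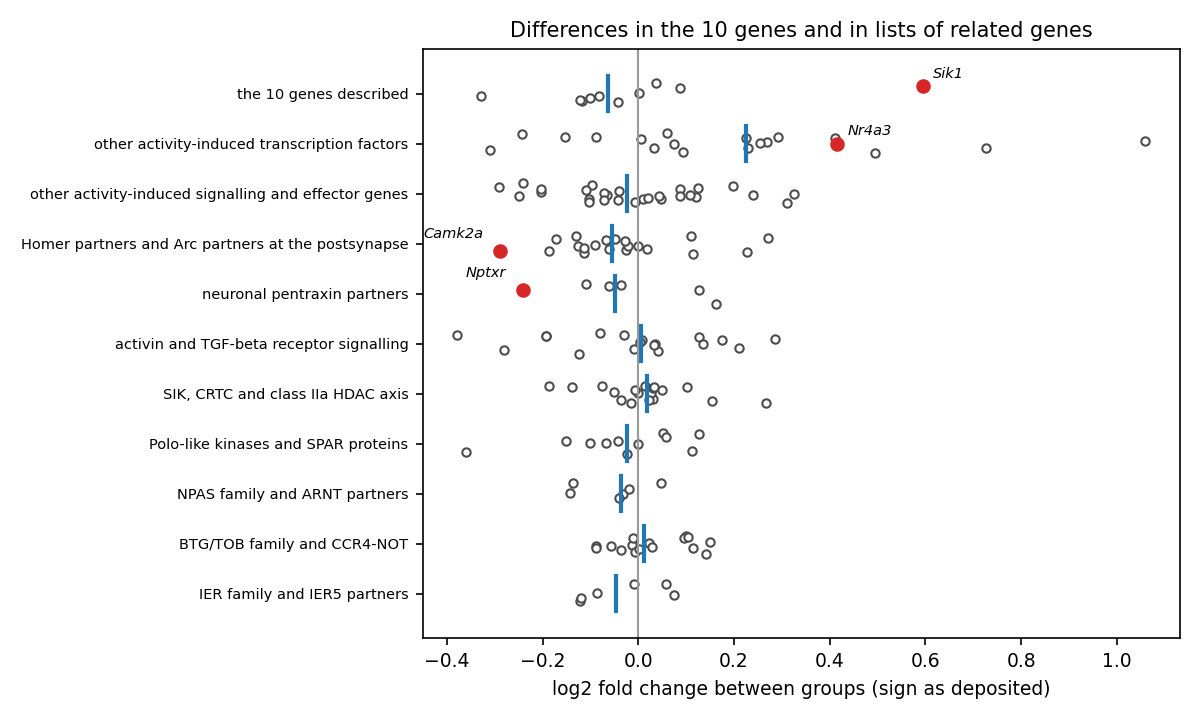
Log2 fold change of each tested gene in the authors' deposited table, for the 10 genes and for 10 lists of related genes, with the median of each list (blue bar). Red points are the genes under an adjusted p-value of 0.05: Sik1, Nr4a3, Camk2a and Nptxr. Points are spread vertically at random to separate them.

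The 10 genes also differed in how precisely they were measured. The standard error of each gene was divided by the median standard error of the genes nearest to it in mean normalized count. For Arc this ratio was 3.50, above that of 99.5% of the tested genes, and it was the 1 gene of the 10 with a ratio over 2, beside 1.85% of all tested genes. The other 9 genes had ratios from 1.02 to 1.46. Nptx2, Ier5 and Homer1 shared the upper end, at 1.46, 1.46 and 1.43, each above 97% of all tested genes. Inhba had a ratio of 1.28, Sik1 of 1.16 and Plk2 of 1.12. Npas4, Btg2 and Ier2 were close to genes of similar abundance, at 1.04, 1.03 and 1.02.

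If the libraries were equally deep and differed by counting noise only, 446 counts of Arc in 3 and 4 libraries would give a standard error of 0.05, and the deposited one was 6.65 times that. For Ier2, the scarcest gene, the deposited standard error was 1.69 times the counting value of 0.15. A spread between libraries adds to counting noise in every gene. Counting noise falls as counts rise, so these multiples do not rank the spread of genes of unlike abundance. Plk2, the most abundant of the 10, had a multiple of 3.85 at a standard error of only 0.07. The ratio of the standard error to that of genes of similar abundance had a median of 6.555 over the 10 oligodendrocyte markers. It was 3.32 over the 9 tested striatal markers. Among other activity-induced genes, the median ratio was 1.21 for the 19 tested transcription factors and 1.05 for the 28 effector genes. Single transcription factors also had wide errors, such as Egr1, at 0.19, and Junb, at 0.22. The 95th percentiles of genes of similar abundance were 0.09 and 0.13. The part of any of these genes or cells in the error of Arc was not tested. Which libraries carried the spread of Arc was not analysed here.

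**Figure D4:**
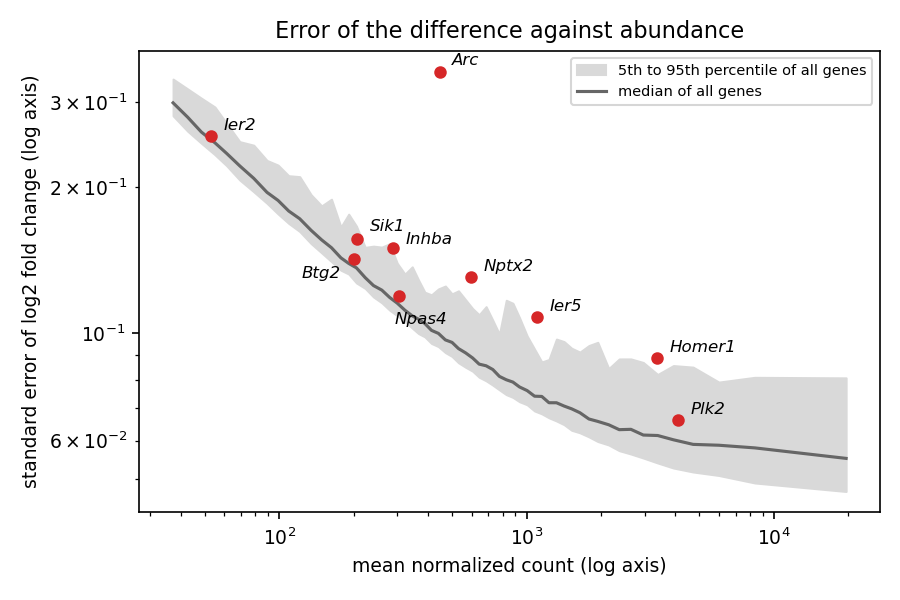
Standard error of the log2 fold change against mean normalized count (both log axes) in the authors' deposited table, for the 10 genes (red) and for all 13060 tested genes in 60 bins of equal size (line, median; band, 5th to 95th percentile). Arc, at a standard error of 0.35, lies far above the band, and Npas4, Btg2 and Ier2 lie on or near the median line.

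Markers of the cells that the tissue could hold were read in the same comparison. They show neurons of the forebrain but do not tell medial prefrontal cortex from neighbouring regions. The excitatory neuron marker Slc17a7 had a mean normalized count of 34713 and a log2 fold change of -0.03 ± 0.05 (SE), and the inhibitory marker Gad2 a mean count of 4095 and a log2 fold change of 0.09 ± 0.06 (SE) in the authors' deposited table. All 11 tested deep-layer markers were positive, 5 of them under the threshold, around a median log2 fold change of 0.49, and 8 of 9 upper-layer markers were negative, 2 of them under the threshold, around a median of -0.21. Of all tested genes, 0.368% were positive and 0.145% negative under the threshold. Ccn2 and Nxph4 led the deep layers, with log2 fold changes of 2.10 ± 0.37 and 1.98 ± 0.36 (SE), and Otof and Rasgrf2 the upper layers, with -0.42 ± 0.11 and -0.31 ± 0.08 (SE), in the authors' deposited table. All 9 tested striatal markers were positive, with a median of 0.70, and 1 of them, Drd1, was under the threshold. All 10 oligodendrocyte markers were positive, with a median of 1.203, and none was under the threshold. All 10 had an unadjusted p-value under 0.05, as did 4.56% of all tested genes on the positive side. The 7 microglial and the 7 endothelial markers were all negative, with medians of -0.13 and -0.16. Of the 7 astrocyte markers 5 were negative, with a median of -0.05, all 3 tested blood genes were negative, with a median of -0.40, the 8 inhibitory neuron markers split evenly and the 7 excitatory neuron markers had a median of 0.02. Of these last 6 lists, only the excitatory one held a gene under the threshold, Camk2a. The excitatory markers did not move together, so Slc17a7 does not stand for all of them. At an unadjusted p-value under 0.05 lay 1 positive gene, Tbr1, and 2 negative ones, Camk2a and Nrgn, beside 4.56% and 3.54% of all tested genes. The positive difference of Sik1 has the sign of the deep-layer, striatal and oligodendrocyte markers, and the negative differences of Nptx2, Nptxr and Camk2a have the sign of the upper-layer, microglial, endothelial and blood markers. The part of these cells in the results was not tested. In bulk tissue fewer cells of a type and less RNA per cell cannot be told apart.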

How the data were processed

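Per the labels' protocols, 100 ng of RNA, obtained with an RNeasy Micro kit, went into each library, made with a KAPA mRNA Hyperprep kit, which selects polyadenylated transcripts. The submitters' processing notes name Trimmomatic, Subread, DESeq2 and the build mm10, and the aligner settings, annotation, software versions and strand setting are not given in the sources used here. The authors' deposited table gives the mean normalized count as a signal averaged over libraries, the log2 fold change, its standard error on the log2 scale, the Wald statistic (a score) and the unadjusted and adjusted p-value, per the file headers. Depth per library is unknown.

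The authors' test was used as deposited, as a two-sided Wald test with Benjamini-Hochberg adjustment. The Wald statistic and p-value were recomputed from the deposited columns and matched. The 95% confidence intervals were taken from the normal distribution around the log2 fold change, with the deposited standard error. The difference needed to pass is the smallest absolute Wald statistic under the threshold, 3.68, times the standard error. Gene models are those of GENCODE M21 on GRCm38, which held 17726 of the 17732 gene IDs. Calculations used Python 3.11.15, numpy 2.4.6, pandas 2.3.3 and scipy 1.17.1 and were tested on simulated data.

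The 10 genes and all lists were chosen with earlier results of these data known. Named were the 10 genes and, from each list of related genes, those under the threshold, the 2 with the smallest p-values and fixed direct partners. From the cortical layer lists, the 2 genes with the largest absolute Wald statistics were named. Other cell marker lists are given by counts, with their genes under the threshold. Outside these rules, Slc17a7 and Gad2 were named as examples, and Tbr1 and Nrgn for their unadjusted p-values. Egr1 and Junb were named for their standard errors. Of the list symbols, Bmal1, Ctgf and Hbb-bs matched no line of the table (Bmal1 and Ctgf are listed there as Arntl and Ccn2), and Atf3, Maff, Fstl3, Isl1 and Hbb-bt had no adjusted p-value. Alternatives tried were another threshold, other adjustments, other filters on the mean count, a null of a 1.2-fold change, and removal of linear trends with length, GC content and abundance from the Wald statistic. Levels per kilobase of the longest coding transcript were added after seeing the data.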

Additional observations from a re-analysis of the deposited data

How the results depend on the processing

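No paired analysis was possible because only the authors' comparison, without values per library, was used. For the same reason no library could be left out and no other normalization or count test was run, so whether 1 library decides the difference of Sik1 or the error of Arc was not tested. Of the 10 genes, 1 passed as deposited, and Sik1 was again the gene that passed at a threshold of 0.1, with no filter on the mean count (adjusted p-value 0.0436), above a minimum mean count of 100 (0.0307) and with trends of length, GC content and abundance removed by regression (0.0436). An unadjusted p-value under 0.05 gave 2 genes, Sik1 and Nptx2. A Bonferroni adjustment and a null of a 1.2-fold change each gave 0 genes, with an adjusted p-value of 1 for Sik1 under both, and both are stricter by construction. The other 9 genes stayed above the threshold under each adjustment, with 0.344 as the lowest value. Ier2, below 100 counts, had no value in the filtered test. Over the lists of related genes, 3 genes passed as deposited, 30 at an unadjusted p-value under 0.05, 1 with Bonferroni adjustment and 0 against a null of a 1.2-fold change. The median log2 fold change of the 10 genes was -0.08 without Ier2, and their mean was -0.0075.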
